A study of Mus musculus with 23 samples.

Results

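The activator protein 1 (AP-1) and ATF3 genes of the sciatic nerve (SN) are described here in 10 members: Jun, Junb and Jund of the Jun family, Fos, Fosb, Fosl1 and Fosl2 of the Fos family, the stress-inducible Atf3, and the basic leucine zipper genes Batf and Batf3. They were taken by symbol and make up 10 of the 43068 genes listed for the crush libraries and 10 of the 22880 genes listed for the inducible knockout libraries. RNA sequencing covered whole SNs of mice in 2 experiments. In the first, wild-type C57bl6 nerves were compared at 3 days post crush (3 dpc) with the contralateral nerve and with nerves labelled as uncrushed surgery controls. In the second, nerves depleted of the microRNA (miRNA) processing proteins Dicer or Dgcr8 in adult Schwann cells (SCs) were compared with their controls at 3 months post tamoxifen (3 mpT).

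The crush experiment comprised 4 crushed, 4 contralateral and 3 uncrushed libraries. By the study's methods the mice were C57BL/6J males aged 2 months, the crush was placed at the sciatic notch, and the piece taken lay distal to it, so that axons degenerate in the tissue measured. The Dicer inducible knockout (Dicer iKO) libraries carry the genotype P0-CreERT2 -/+ Dicer1 flox/flox and the Dgcr8 iKO libraries P0-CreERT2 -/+ Dgcr8 flox/flox, with 3 libraries each. Their controls, 3 libraries each, are P0-CreERT2 -/- with the same floxed alleles. All 12 came from a C57bl6 background and, by the methods, all received tamoxifen between 8 and 10 weeks of age, the Cre-negative controls included. The transgene limits recombination mainly to myelinating SCs, and mutants with affected nerve morphology were the ones taken, so the values describe such nerves only.

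AP-1 is a family of dimers in which a Jun protein pairs with another Jun protein, with a Fos protein or with a related ATF or BATF protein, and the dimer binds short palindromic DNA elements. The c-Jun protein, encoded by Jun, is activated through phosphorylation by the Jun N-terminal kinases (JNK). After nerve injury c-Jun rises in SCs and is required for the repair SC, the state in which the cell stops making myelin, supports neuronal survival and guides regrowing axons. Atf3 is a widely used marker of the injury response in neurons and SCs.

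The Jun and Fos genes and Atf3 can be regulated by AP-1 and ATF proteins through their own promoters, so the promoter windows are shown first for the genes on which the results turn: Jun and Atf3, which were raised in all injury and knockout comparisons, Fos, which was raised after crush, and Fosb, which fell in the Dgcr8 iKO. Each window holds the 250 bases before the RefSeq transcript start (GRCm38.p6), 5′ to 3′ on the strand of the gene. Capitals mark TGACATCA, TGACG or TTGCATCA on either strand. The regions are chr4:95052223-95052472 (minus strand) for Jun, chr1:191183334-191183583 (minus strand) for Atf3, chr12:85473640-85473889 (plus strand) for Fos and chr7:19310046-19310295 (minus strand) for Fosb.
Jun: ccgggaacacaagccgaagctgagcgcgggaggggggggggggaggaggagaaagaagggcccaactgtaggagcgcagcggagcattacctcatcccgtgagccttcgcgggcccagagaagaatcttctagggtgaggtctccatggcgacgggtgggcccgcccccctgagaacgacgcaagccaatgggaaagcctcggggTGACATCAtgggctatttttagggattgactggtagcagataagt
Atf3: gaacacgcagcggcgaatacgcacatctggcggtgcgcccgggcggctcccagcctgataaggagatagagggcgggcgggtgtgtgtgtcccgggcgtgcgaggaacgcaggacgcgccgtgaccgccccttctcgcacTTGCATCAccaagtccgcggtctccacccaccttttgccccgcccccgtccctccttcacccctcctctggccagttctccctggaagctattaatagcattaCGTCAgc
Fos: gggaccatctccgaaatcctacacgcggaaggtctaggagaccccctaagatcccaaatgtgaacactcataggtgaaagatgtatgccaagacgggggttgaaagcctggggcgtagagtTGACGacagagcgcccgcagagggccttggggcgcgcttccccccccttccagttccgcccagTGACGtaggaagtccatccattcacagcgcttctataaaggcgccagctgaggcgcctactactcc
Fosb: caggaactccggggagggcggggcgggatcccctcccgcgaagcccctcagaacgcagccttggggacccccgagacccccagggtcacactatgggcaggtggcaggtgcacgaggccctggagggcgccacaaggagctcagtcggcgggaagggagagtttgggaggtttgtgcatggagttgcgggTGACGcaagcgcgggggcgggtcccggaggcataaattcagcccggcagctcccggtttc

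Such windows were found for 9 of the 10 members. TGACTCA, the classical AP-1 element, was held by 0 of these 9 windows and by 4.464% of all 32841 promoter windows of the same length, and the full cyclic AMP element TGACGTCA by 0 of 9 and 1.547% of all windows. The Jun window held TGACATCA, the variant known from the Jun promoter, at bases -45 to -38 from the start, and 2.929% of all windows held it. TGACG, which is contained in the full cyclic AMP element, occurred in the windows of 5 members (Junb, Fos, Fosb, Atf3 and Batf), against 17.77% of all windows. In Atf3 it read from the opposite strand at bases -7 to -3, and the same window held TTGCATCA, an element bound by ATF4 and C/EBP dimers, at bases -110 to -103, which 0.792% of all windows held. Of 13 windows of AP-1 target genes, 6 held TGACTCA (Il6, Mmp3, Mmp10, Mmp12, Mmp13 and Plaur). These are matches of letters, chosen with the windows in view, and no binding was measured here.

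Since the knockouts remove miRNA processing, mature miRNAs that the study's list of predicted targets joins to members are shown as well. That list, which was held only in part, names Fosl2 for miR-10a, miR-10b and miR-143, and Fos for miR-181a. The mature sequences are from RefSeq (GRCm38.p6), with the seed, bases 2 to 8, in capitals.
miR-10a-5p: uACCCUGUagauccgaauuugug
miR-10b-5p: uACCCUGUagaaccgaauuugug
miR-181a-5p: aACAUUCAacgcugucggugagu
They are encoded at chr11:96317186-96317208, at chr2:74726074-74726096, and at both chr1:137966468-137966490 and chr2:38852741-38852763, all on the plus strand. The miR-10 pair share their seed and differ by the substitution U12A, counted from the 5′ end and written with miR-10a-5p first. The pairing of a seed with a transcript is predicted, and miRNA levels were not part of the libraries used here.

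Values are given as normalized counts (CPM, counts scaled to library size and composition), which can be compared between libraries of the same experiment but not between genes, since they are not per transcript length. Total counts ranged from 6617716 to 12806066 in the crush libraries and from 5594859 to 10143244 in the iKO libraries. The level that 3 counts give, taken as the floor of detection, was 0.234 to 0.453 CPM in the former and 0.296 to 0.536 CPM in the latter, which covers counting error only. No pair of replicates agreed within sampling noise. The labels give different library kits for the experiments, and the study's methods a single one, so no value was tested across them. A gene was called when it changed at least 2-fold with an adjusted p of at most 0.05 by the quasi-likelihood test of edgeR, adjusted after Benjamini and Hochberg over all genes tested, and all adjusted p values below are of this kind unless another tool is named. The summed counts of the targeted genes did not pass the test in the iKO comparisons: in the libraries labelled Dicer iKO, Dicer1 had 81.9 ± 0.415 CPM (mean ± SD, n = 3) against 88.7 ± 1.66 in their controls (adjusted p = 0.357), and Dgcr8 had 45.1 ± 7.84 CPM in those labelled Dgcr8 iKO against 38.5 ± 3.20 (adjusted p = 0.233). Dicer1 was at 81.4 to 82.2 CPM in the mutants and 87.5 to 90.6 CPM in their controls, without overlap, and the Dgcr8 ranges, 39.4 to 54.0 and 35.4 to 41.8 CPM, overlapped. A floxed allele loses only some exons, so gene sums can miss the deletion. Whether they did so here was not tested.

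After crush, 7 of the 10 members were higher in the crushed than in the uncrushed nerves and none was lower: Jun, Junb, Fos, Fosl1, Fosl2, Atf3 and Batf. Of all 17433 genes tested in that comparison 36.5% were called, 15.3% higher and 21.1% lower. Against the contralateral nerves 8 of 10 were higher, Fosb being the addition, and none was lower, where 28.3% of all 16667 genes tested were called, 14.6% higher and 13.6% lower. The median log2 fold change of the members was 2.39 and 2.49, against -0.03 and -0.06 over all genes tested. Both comparisons use the same 4 crushed libraries, so they are not independent of each other. In whole nerve, more cells of a type and more RNA per cell cannot be told apart.

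**Figure D1:**
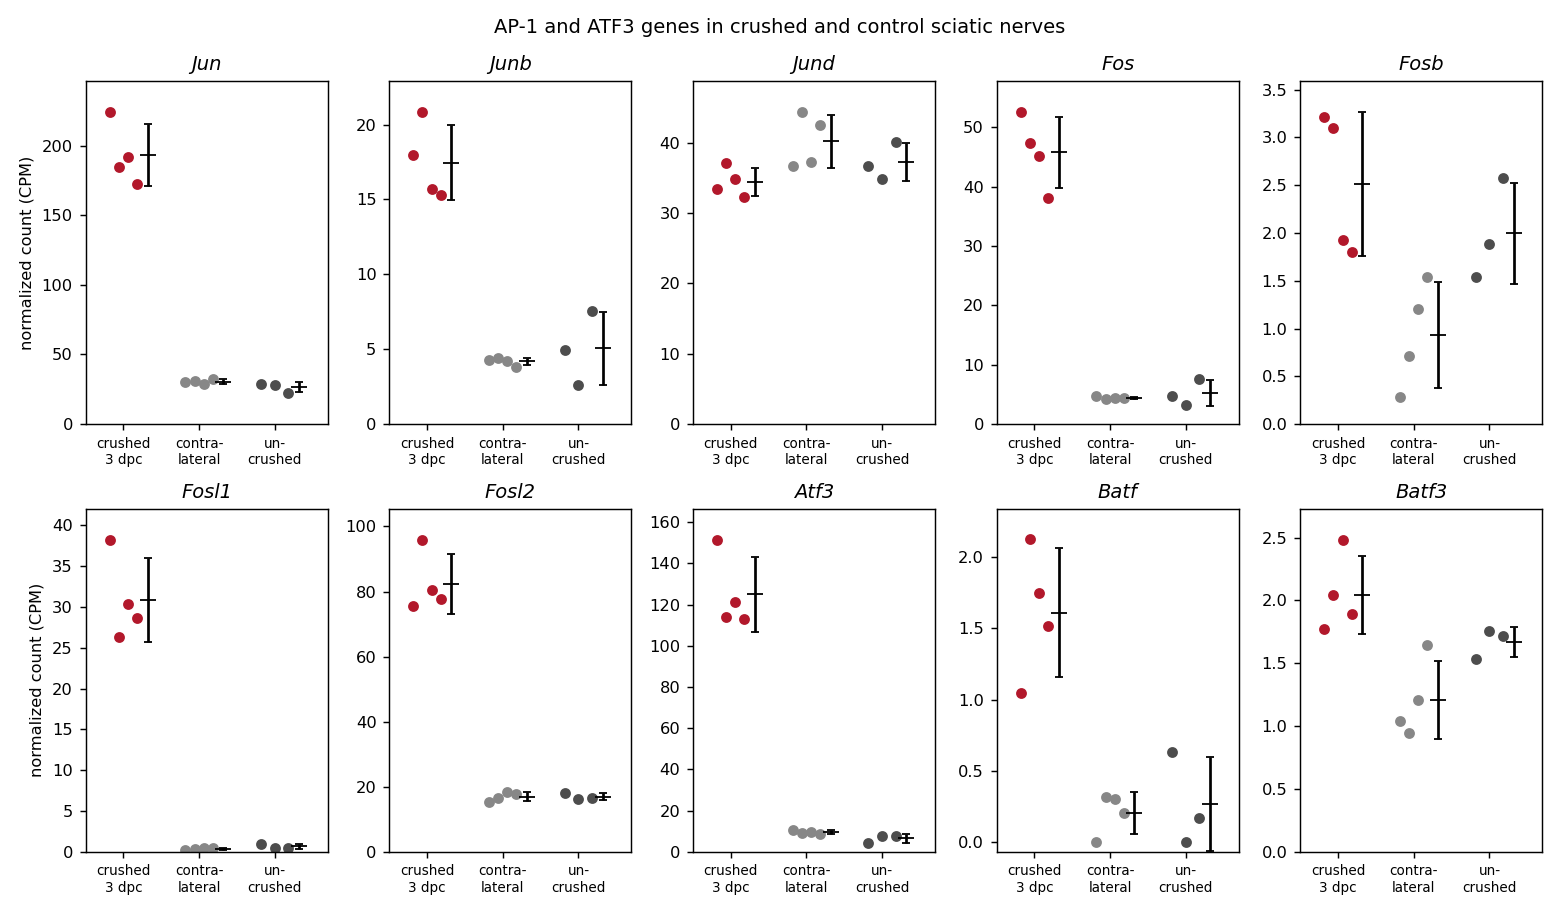
Normalized counts (CPM, linear axis) of the 10 members in the 11 libraries of the crush experiment, one panel per gene, with each point a library and the bar the mean ± SD of its group. The crushed libraries sit apart from both control groups for Jun, Junb, Fos, Fosl1, Fosl2, Atf3 and Batf, and overlap with them for Jund. Batf3 is apart only narrowly (lowest crushed 1.77 CPM, highest control 1.76 CPM), and Fosb overlaps with the uncrushed nerves.

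Jun (ENSMUSG00000052684, chr4:95049034-95052222, minus strand) was at 224, 184, 192 and 172 CPM in the crushed nerves, at 30.4, 30.6, 28.5 and 32.6 CPM in the contralateral nerves and at 29.0, 28.2 and 22.6 CPM in the uncrushed nerves. The lowest crushed nerve lay far above the highest control, and the control groups overlapped. The increase was 7.75-fold over uncrushed (log2 fold change 2.95 ± 0.14, SE, adjusted p = 3.87e-09) and 6.40-fold over contralateral (2.68 ± 0.09, adjusted p = 9.75e-12).

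Junb (ENSMUSG00000052837, chr8:84974484-84978718, minus strand) encodes a Jun protein that is usually a weaker activator than c-Jun and can oppose it. It was at 17.9, 20.8, 15.7 and 15.3 CPM in the crushed, 4.26, 4.41, 4.23 and 3.81 CPM in the contralateral, and 4.97, 2.64 and 7.55 CPM in the uncrushed nerves, a clear separation with the widest spread among the uncrushed. The log2 fold change was 1.94 ± 0.24 against uncrushed (adjusted p = 1.76e-05) and 2.07 ± 0.13 against contralateral (adjusted p = 4.34e-09). Jund (ENSMUSG00000071076, chr8:70698949-70700616, plus strand), the broadly expressed Jun gene, behaved differently. Its crushed values of 33.5, 37.1, 34.8 and 32.3 CPM overlapped with the 36.7, 44.3, 37.3 and 42.5 CPM of the contralateral and the 36.7, 34.8 and 40.1 CPM of the uncrushed nerves. On the log2 scale the difference was -0.00 ± 0.09 against uncrushed (adjusted p = 0.979) and -0.21 ± 0.09 against contralateral (adjusted p = 0.0483), a value that did not reach 2-fold.

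Of the Fos family, Fos (ENSMUSG00000021250, chr12:85473890-85477273, plus strand), the classical immediate early member, whose transcripts are known to peak soon after a stimulus, was at 52.5, 47.4, 45.1 and 38.1 CPM in the crushed nerves, 4.73, 4.25, 4.33 and 4.32 CPM in the contralateral and 4.78, 3.27 and 7.55 CPM in the uncrushed nerves. All 4 crushed nerves exceeded every control, by 9.78-fold over uncrushed (log2 fold change 3.29 ± 0.20, adjusted p = 3.41e-08) and 10.5-fold over contralateral (3.39 ± 0.12, adjusted p = 7.69e-12).

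Fosl1 (ENSMUSG00000024912, chr19:5447547-5455946, plus strand) encodes Fra-1, a Fos protein without the strong activation domain of c-Fos. It was at 38.2, 26.4, 30.3 and 28.7 CPM in the crushed nerves, whereas the contralateral nerves had 2, 4, 4 and 4 counts (0.19, 0.32, 0.40 and 0.41 CPM) and the uncrushed nerves 11, 4 and 3 counts (0.99, 0.50 and 0.51 CPM). The controls were thus near the detection floor. Fosl1 had the largest increase of the members, 45.3-fold over uncrushed (log2 fold change 5.50 ± 0.25, adjusted p = 3.38e-09) and 92.6-fold over contralateral (6.53 ± 0.22, adjusted p = 7.46e-12), with 0.161% and 0.0900% of all tested genes higher. With so few control counts these fold values depend on the model's handling of low counts.

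Fosl2 (ENSMUSG00000029135, chr5:32135801-32157842, plus strand), which encodes Fra-2, was at 75.6, 95.9, 80.5 and 77.6 CPM in the crushed, 15.3, 16.4, 18.3 and 17.8 CPM in the contralateral and 18.1, 16.1 and 16.6 CPM in the uncrushed nerves. The groups were well apart, 5.21-fold over uncrushed (log2 fold change 2.38 ± 0.11, adjusted p = 4.03e-09) and 4.91-fold over contralateral (2.30 ± 0.09, adjusted p = 2.97e-11). Fosb (ENSMUSG00000003545, chr7:19302696-19310051, minus strand) was the exception of the family. It was at 3.22, 3.10, 1.93 and 1.80 CPM in the crushed, 0.28, 0.71, 1.21 and 1.54 CPM in the contralateral and 1.53, 1.89 and 2.57 CPM in the uncrushed nerves. The crushed values thus lay above all contralateral ones (log2 fold change 1.47 ± 0.37, adjusted p = 0.00313) but overlapped with the uncrushed ones (0.49 ± 0.31, adjusted p = 0.177).

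Atf3 (ENSMUSG00000026628, chr1:191170296-191218039, minus strand) was at 151, 114, 121 and 113 CPM in the crushed nerves, 10.6, 9.29, 9.46 and 8.55 CPM in the contralateral and 4.06, 7.79 and 7.55 CPM in the uncrushed nerves. The 3 groups did not overlap, with the crushed highest and the uncrushed lowest. Against uncrushed the increase was 21.5-fold (log2 fold change 4.43 ± 0.21, adjusted p = 3.70e-09), with 0.579% of all tested genes higher, and against contralateral 13.3-fold (3.74 ± 0.12, adjusted p = 4.13e-12). In the crush files 25.0% ± 1.41 (SD, n = 4) of the Atf3 counts of the crushed nerves were assigned to the noncoding transcript Atf3-202, against 15.2% ± 9.05 in the contralateral and 7.29% ± 1.84 in the uncrushed nerves, and nearly all others to the coding transcript. The lowest crushed share of Atf3-202, 23.8%, lay under the highest contralateral one, 24.3%, and above the highest uncrushed one, 9.16%. In the uncrushed libraries these shares rest on 3.19 to 4.12 counts each, and their change was not tested.

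The BATF genes, whose short proteins pair with Jun proteins in immune cells, were low throughout. Batf (ENSMUSG00000034266, chr12:85686669-85709087, plus strand) had 13 to 26 counts per crushed library (1.05, 2.12, 1.75 and 1.51 CPM), 0 to 4 per contralateral library and 7, 0 and 1 in the uncrushed libraries. The crushed libraries lay above all controls, which overlapped with each other, and the log2 fold change was 2.41 ± 0.60 against uncrushed (adjusted p = 0.00369) and 2.88 ± 0.48 against contralateral (adjusted p = 9.18e-05), both from control counts at about the floor. Batf3 (ENSMUSG00000026630, chr1:191097847-191108945, plus strand), which is required for a class of dendritic cells, was at 1.77, 2.04, 2.48 and 1.89 CPM in the crushed, 1.04, 0.95, 1.21 and 1.65 CPM in the contralateral and 1.53, 1.76 and 1.72 CPM in the uncrushed nerves. The fitted log2 change of 0.40 ± 0.27 (adjusted p = 0.202) against uncrushed and that of 0.78 ± 0.26 (adjusted p = 0.0153) against contralateral were not called. These are values of the summed transcripts. The coding transcript took 69.5% ± 8.78 (SD, n = 4) of the Batf3 counts in the crushed nerves. In the contralateral nerves it took 31.7% ± 28.5 (n = 4) and in the uncrushed nerves 11.4% ± 13.9 (n = 3). The lowest crushed share, 59.7%, lay under the highest contralateral one, 60.2%, and above the highest uncrushed one, 26.9%. With 10 to 27 counts per library these shares are rough, and their change was not tested.

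Marker levels moved with crush as well. The summed level of 12 macrophage markers was 889 to 1989 CPM in the crushed nerves, 158 to 291 in the contralateral and 228 to 268 in the uncrushed nerves, and 11 of the 12 were called higher in either comparison. The sum of 10 SC and myelin markers was 2520 to 3521 CPM in the crushed nerves against 41371 to 56692 CPM in the controls, with 6 and 7 of 10 called lower. Markers of T cells (3.06 to 4.74 CPM), dendritic cells (36.9 to 41.0 CPM) and neutrophils (37.6 to 51.0 CPM) summed to low values in the crushed nerves and to 3.07 to 9.09, 41.7 to 61.2 and 23.9 to 53.5 CPM in the controls, with Trac at 0 in all uncrushed and Retnlg at 0 in all contralateral libraries. Single markers moved within these sums: 2 of 7 dendritic cell markers were called higher and 1 lower in either comparison, and of 3 neutrophil markers tested 1 was higher and 1 lower against uncrushed and 2 were higher against contralateral. Cxcr2 made up 35.9% of the neutrophil sum in the crushed nerves and 78.3% and 76.6% in the contralateral and uncrushed nerves, and 2 of 3 T cell markers tested were lower against uncrushed. The part of these cells in the members' changes was not tested.

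The uncrushed and contralateral nerves allow a check of the control itself. None of the 8 members tested (Fosl1 and Batf did not pass the filter on low counts) was called between them, nor was any gene in the whole table, so that 0% of 17722 genes was called in either direction by edgeR's quasi-likelihood test. At an unadjusted p under 0.05, 1005 genes were higher and 2160 lower in the contralateral nerves, edgeR's exact test called 2 higher and 161 lower, and DESeq2 0 and 31. Atf3 had the largest increase of the members, with the 4 contralateral values all above the 3 uncrushed ones and a log2 fold change of 0.59 ± 0.21 (unadjusted p = 0.0149, adjusted p = 0.194), which 0.666% of the genes exceeded. Fosb had the largest decrease, -1.07 ± 0.47 (adjusted p = 0.260). The log2 fold changes of Jun, Junb, Jund, Fos, Fosl2 and Batf3 lay between -0.47 and 0.18, with adjusted p from 0.388 to 0.971.

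In the Dicer iKO, Jun, Atf3 and Batf were higher than in the controls and no member was lower, 3 of the 9 members tested, where 9.01% of all 13045 genes tested were called, 7.37% higher and 1.64% lower. Junb and Fosl2 rose by less than 2-fold. In the Dgcr8 iKO, Jun, Fosl2 and Atf3 were higher and Fosb was lower, 4 of the 9 members tested, where 20.4% of all 13252 genes tested were called, 13.4% higher and 6.99% lower. Junb, Jund and Fos rose there by less than 2-fold. The median log2 fold change of the members was 0.55 in the Dicer iKO and 0.96 in the Dgcr8 iKO, against -0.01 over all genes in both.

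**Figure D2:**
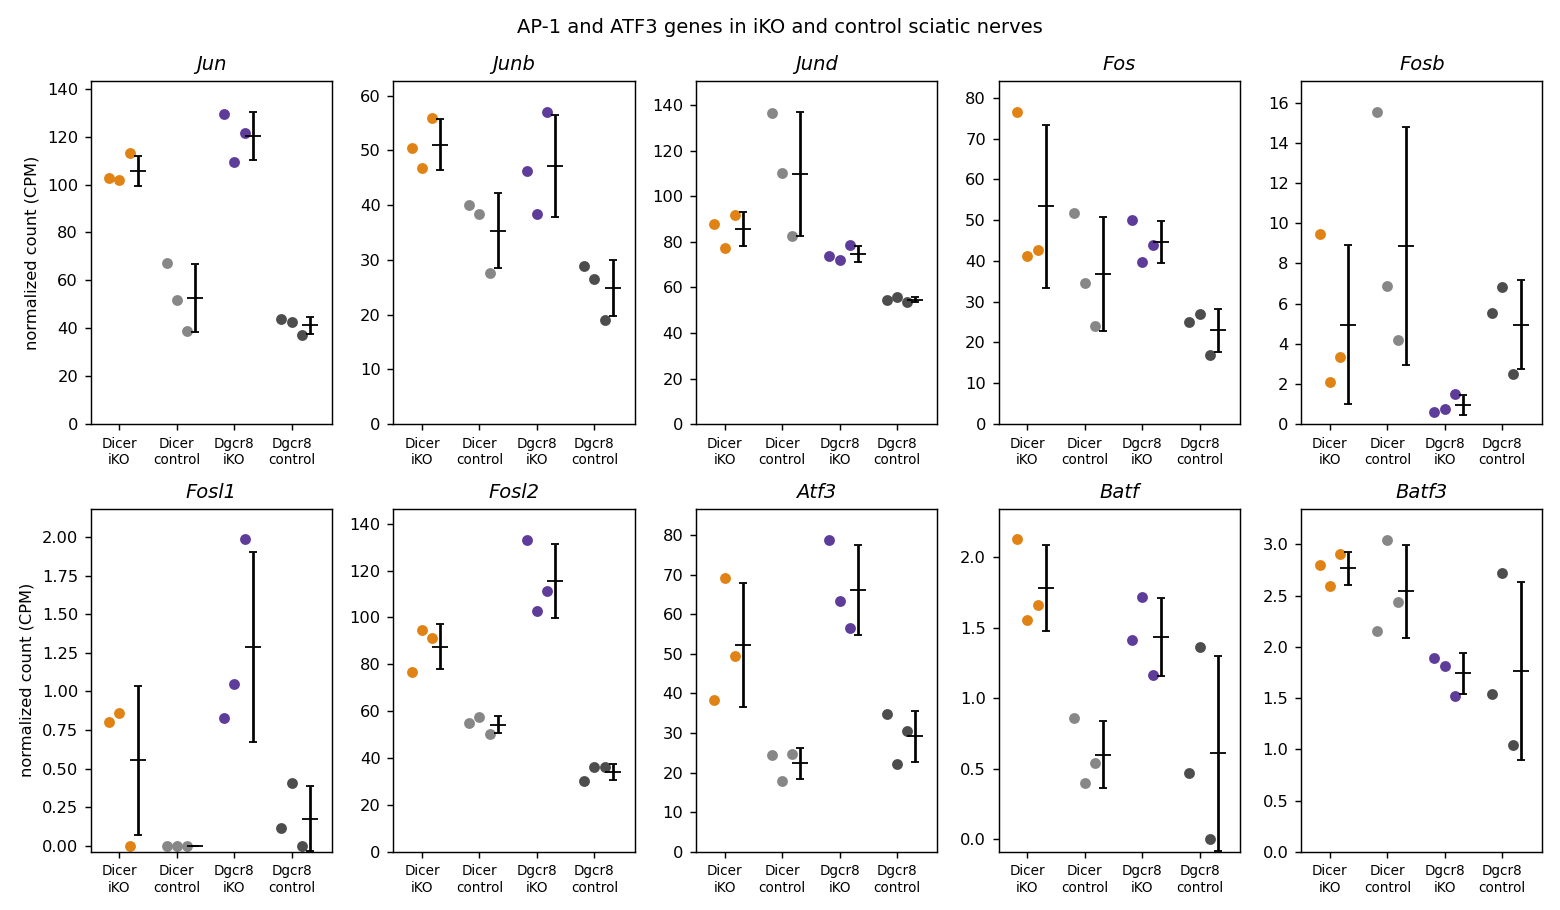
Normalized counts (CPM, linear axis) of the 10 members in the 12 libraries of the iKO experiment, one panel per gene, with each point a library and the bar the mean ± SD of its group of 3. For Jun, Fosl2 and Atf3 all mutant libraries of both lines sit above their controls, whereas Fosb is lowest in the Dgcr8 iKO.

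Jun was at 103, 102 and 113 CPM in the Dicer iKO and at 67.3, 51.7 and 39.0 CPM in its controls. It was at 129, 109 and 122 CPM in the Dgcr8 iKO and at 43.8, 42.8 and 37.2 CPM in its controls. In both lines every mutant nerve exceeded every control, and the Dicer controls spread more widely than the Dgcr8 controls. The increase was 2.01-fold in the Dicer iKO (log2 fold change 1.01 ± 0.19, adjusted p = 0.0107) and 2.91-fold in the Dgcr8 iKO (1.54 ± 0.13, adjusted p = 7.44e-06).

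Atf3 was at 38.4, 69.2 and 49.3 CPM in the Dicer iKO against 24.4, 17.9 and 24.8 CPM in its controls, and at 78.7, 63.2 and 56.5 CPM in the Dgcr8 iKO against 34.9, 22.2 and 30.5 CPM in its controls. Neither line overlapped with its controls. The increases were alike in size, 2.34-fold (log2 fold change 1.23 ± 0.23, adjusted p = 0.0120) and 2.26-fold (1.17 ± 0.18, adjusted p = 0.000397). Unlike the crush files, the iKO files assigned 100% of the Atf3 counts to the coding transcript, with the noncoding one not listed there.

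Fosl2 was at 76.6, 94.6 and 91.3 CPM in the Dicer iKO and at 55.1, 57.4 and 50.3 CPM in its controls. In the Dgcr8 iKO it was at 133, 103 and 111 CPM against 30.2, 36.0 and 36.3 CPM. All mutant values were above their controls, and those of the Dgcr8 iKO by a wider margin. The fold values were 1.61 (log2 fold change 0.69 ± 0.11, adjusted p = 0.00754) and 3.38 (1.76 ± 0.14, adjusted p = 6.59e-06).

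Fos was at 76.5, 41.1 and 42.7 CPM in the Dicer iKO and at 51.8, 34.5 and 23.9 CPM in its controls, so the groups overlapped (log2 fold change 0.55 ± 0.33, adjusted p = 0.268). In the Dgcr8 iKO it was at 50.1, 39.8 and 44.0 CPM against 24.9, 27.0 and 17.0 CPM, with no overlap (0.96 ± 0.18, adjusted p = 0.00113). Junb followed a like pattern with 50.4, 46.8 and 56.0 CPM against 40.1, 38.4 and 27.6 CPM in the Dicer comparison (0.53 ± 0.16, adjusted p = 0.0484) and 46.2, 38.4 and 57.0 CPM against 28.9, 26.4 and 19.1 CPM in the Dgcr8 comparison (0.93 ± 0.19, adjusted p = 0.00207). In neither comparison did the Junb groups overlap. Jund was at 87.9, 77.4 and 91.7 CPM in the Dicer iKO against 137, 110 and 82.6 CPM, with overlap (-0.36 ± 0.18, adjusted p = 0.192), and at 73.8, 72.1 and 78.8 CPM in the Dgcr8 iKO against 54.3, 55.8 and 53.6 CPM, without overlap (0.45 ± 0.11, adjusted p = 0.00611).

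Fosb went the other way. It was at 0.59, 0.76 and 1.52 CPM in the Dgcr8 iKO (5, 8 and 13 counts, near the floor) and at 5.55, 6.81 and 2.49 CPM in its controls. The log2 fold change was -2.35 ± 0.47 (adjusted p = 0.00208), with every mutant nerve below every control. In the Dicer comparison the values of 9.46, 2.07 and 3.33 CPM in the mutants and 15.5, 6.88 and 4.19 CPM in the controls overlapped (-0.80 ± 0.63, adjusted p = 0.395). In both the mutant and the control group the first Dicer library was the highest for Fosb as for Fos.

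Fosl1, the most strongly raised member after crush, was close to undetected in the iKO libraries and did not pass the filter on low counts. It had 6, 5 and 0 counts in the Dicer iKO libraries and 0 counts in each of the 3 controls. In the Dgcr8 iKO libraries it had 7, 11 and 17 counts, and in their controls 1, 3 and 0. With no filter on counts the Dgcr8 difference passed the threshold (log2 fold change 2.89 ± 0.85, adjusted p = 0.00972) and the Dicer difference did not (4.99 ± 1.92, adjusted p = 0.132). Batf had 9 to 16 counts (2.13, 1.55 and 1.66 CPM) in the Dicer iKO libraries and 3 to 6 (0.86, 0.40 and 0.54 CPM) in their controls (log2 fold change 1.56 ± 0.44, adjusted p = 0.0429), and 10 to 18 counts in the Dgcr8 iKO libraries and 0 to 10 in their controls, with overlap (1.33 ± 0.73, adjusted p = 0.163). Batf3 was at 1.52 to 2.91 CPM in the mutants and 1.04 to 3.04 CPM in the controls of both lines, and its log2 change was 0.12 ± 0.29 with Dicer (adjusted p = 0.791) and 0.01 ± 0.41 with Dgcr8 (adjusted p = 0.983).

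The Dicer calls lay close to the threshold and depended on which libraries were used. Without Dicer control replicate 2 or without Dicer iKO replicate 3, no member was called, with adjusted p of 0.0532 and 0.0542 for Jun and of 0.0537 and 0.0502 for Atf3. Without Dicer control replicate 3 only Atf3 was called and the log2 fold change of Jun was 0.83, and without Dicer iKO replicate 2 only Jun was called and that of Atf3 was 0.99. Without Dicer control replicate 1, Jun and Atf3 were called and Batf was not, and the same held without Dicer iKO replicate 1, so that Batf lost its call without any single library of that comparison (adjusted p from 0.0518 to 0.163). In the Dgcr8 comparison Jun, Fosl2 and Atf3 were called higher and Fosb lower (-2.07 to -2.81) in each of the 6 runs that left out a library. 5 members were called higher there without Dgcr8 control replicate 1, without Dgcr8 control replicate 2 and without Dgcr8 iKO replicate 2, where Fos (1.02 to 1.08) and Junb (1.05 and 1.06) or Batf (2.61) passed the 2-fold limit.

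**Figure D3:**
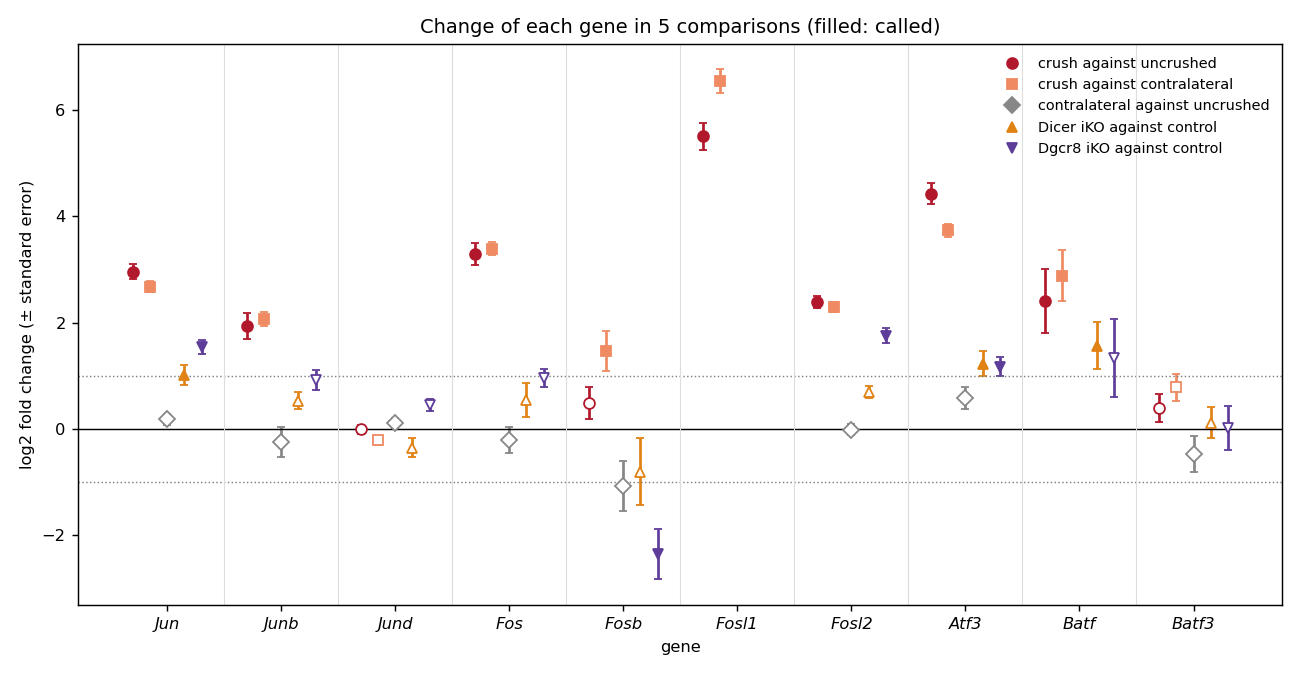
Fitted log2 fold change (± SE) of each member in 5 comparisons, with filled symbols for called changes, the dotted lines at 2-fold in either direction, and no symbol where a gene did not pass the filter on low counts. Crush gives the highest values (up to 6.53 for Fosl1), the knockouts give 1.01 to 1.76 for the called increases of Jun, Fosl2 and Atf3, and the contralateral against uncrushed values include no filled symbol.

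The knockout effects were compared directly in a fit over all 12 libraries. None of the 9 members tested differed between the lines at an adjusted p of 0.05, where 0.0148% of 13552 genes did, 0.00738% in each direction (1 gene each, with 1038 higher and 823 lower at an unadjusted p under 0.05, and 170 and 65 called by DESeq2). Fosl2 came closest, with an effect 1.07 ± 0.18 larger on the log2 scale in the Dgcr8 iKO (unadjusted p = 4.89e-05, adjusted p = 0.0997). DESeq2 called this difference (adjusted p = 0.000208) and that of Jund (0.83, adjusted p = 0.0296), and so did edgeR's quasi-likelihood test without Dicer control replicate 3 (1.12, adjusted p = 0.0103, and 0.98, adjusted p = 0.00885), a run in which 320 genes were called higher and 81 lower. For Jun the difference was 0.53 ± 0.23 (adjusted p = 0.333) and for Atf3 -0.05 ± 0.32 (adjusted p = 0.963).

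Immune and stromal markers moved with the knockouts too. The 12 macrophage markers summed to 4501 to 8222 CPM in the Dicer iKO and 3051 to 7548 CPM in the Dgcr8 iKO, against 483 to 1473 and 470 to 564 CPM in the controls, and 8 and 9 of them were called higher, with 1 called lower in the Dgcr8 iKO. The 6 fibroblast markers summed to 18754 to 24757 CPM in the mutants and 6124 to 17592 CPM in the controls. The 8 T cell markers summed to 12.1 to 31.4 CPM in the mutants and to 0.926 to 2.59 CPM in the controls (Cd3e and Cd3g were at 0 in all Dgcr8 controls). Cd4 made up 87.5% of that sum in the Dicer iKO, where it was the only one of the 8 tested, and 54.9% in the Dgcr8 iKO, where 4 were tested and called higher. The 7 dendritic cell markers, led in the mutants by Itgax, summed to 78.9 to 245.9 and 29.5 to 57.3 CPM. The 7 neutrophil markers summed to 25.3 to 63.7 CPM over the 4 groups, with Ly6g, Mpo and S100a9 at 0 in all Dicer iKO libraries. Within this sum Csf3r led in the mutants (59.3% and 66.3%) and Cxcr2 in the controls (90.0% and 95.1%), and 1 of 2 tested was called higher in the Dicer iKO and 2 of 3 higher and 1 lower in the Dgcr8 iKO. The sum of the SC and myelin markers was 15437 to 29665 CPM in the mutants and 28743 to 47816 CPM in the controls. The part of these shifts in the members' changes was not tested.

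Within each family the make-up is given per transcript length, as the share of the family's summed TPM, which divides counts by transcript length. In uninjured nerve Jund held the largest share of the Jun family, 53.7% ± 1.57 in the uncrushed (SD, n = 3) and 54.0% ± 1.86 in the contralateral nerves (n = 4), and Jun 34.8% ± 5.93 and 37.0% ± 1.57. After crush Jun held 73.5% ± 2.57 (n = 4), Jund 14.7% ± 1.33 and Junb 11.9% ± 1.54, so that the order of Jun and Jund was exchanged while the levels of Jund itself overlapped between the groups. The ranges of the Jun share, 70.2% to 76.4% in the crushed and 28.1% to 39.4% in the control nerves, did not meet.

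In the knockouts the shift had the same direction. Jun went from 21.9% ± 0.962 of its family in the Dicer controls to 36.1% ± 1.12 in the Dicer iKO, and from 28.0% ± 0.194 in the Dgcr8 controls to 41.6% ± 2.51 in the Dgcr8 iKO (n = 3 each), while Jund went from 51.1% to 32.5% and from 41.6% to 29.0%. Junb stayed between 27.0% and 31.4% in these 4 groups.

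In the Fos family Fosl1 held 26.4% ± 2.94 of the TPM in the crushed nerves, 2.61% ± 0.327 in the contralateral and 5.29% ± 2.75 in the uncrushed nerves, while Fos held 52.9%, 54.1% and 50.8%. These Fos shares include short noncoding transcripts, which weigh more per length and were not listed in the iKO files. The coding transcript took 74.1% ± 2.20, 62.3% ± 7.79 and 68.1% ± 6.63 (SD) of the Fos counts in these groups. Fosl2 held 19.8% ± 2.97 after crush and 37.1% to 40.1% in the control groups. Fosb held 0.609% ± 0.321 in the Dgcr8 iKO and 6.90% ± 2.20 in its controls. The order depended on the unit: by counts without length Fosl2 led the family in every group, with 51.0% ± 4.68 in the crushed, 74.9% ± 0.801 in the contralateral and 68.7% ± 6.83 in the uncrushed nerves. By counts Fos held 28.3%, 19.6% and 20.5% in these groups, and Fosl1 19.2%, 1.44% and 2.70%.

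**Figure D4:**
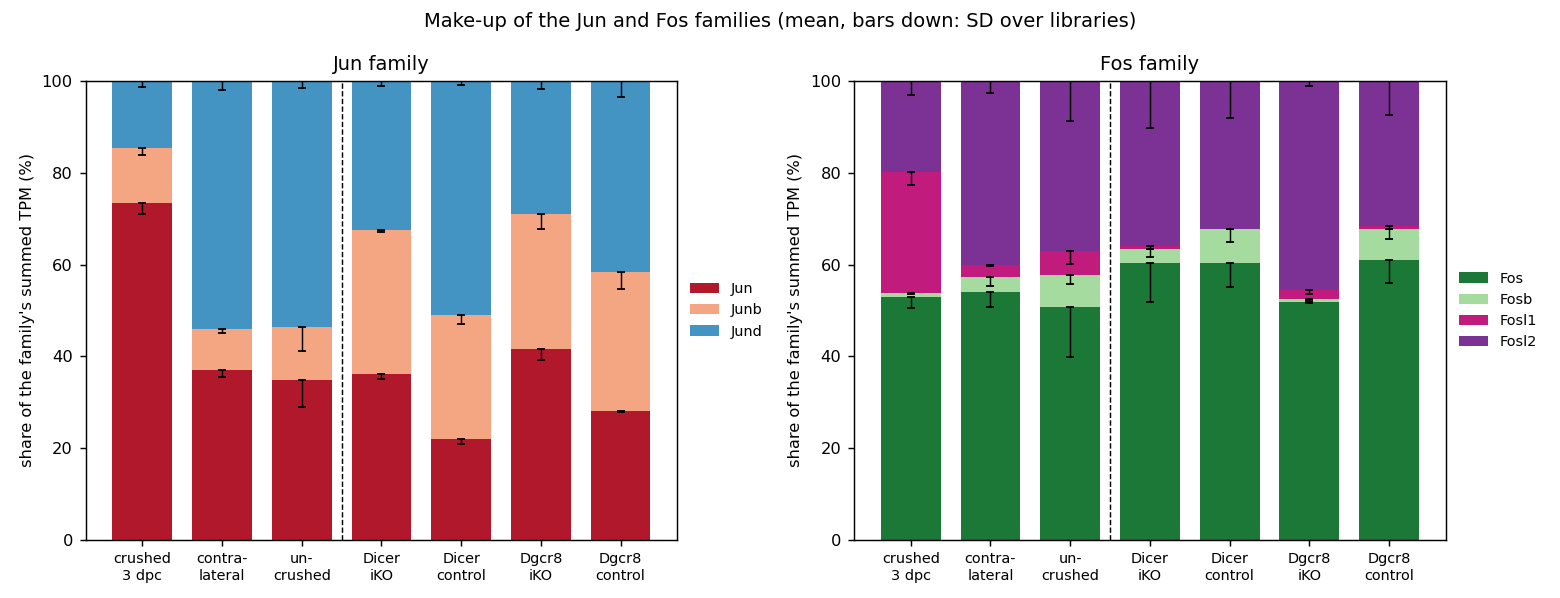
Share of each gene in the summed TPM of the Jun family (left) and the Fos family (right), as group means stacked to 100%, with the SD over libraries drawn downwards from the top of each segment and a dashed line between the experiments. Jun is the largest segment of its family in the crushed nerves (73.5%) and Fosl1 appears as a large segment only there (26.4%). The Fos segment includes short noncoding transcripts in the crush experiment only, so it cannot be compared across the dashed line.

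Genes linked to the members by known function were read in the same fits. The list of 12 genes known to depend on c-Jun in repair SCs, or to be used with it as markers of them, had 6 of 10 tested members higher and 1 lower against uncrushed, 7 and 1 of 9 against contralateral, 4 and 0 of 9 in the Dicer iKO and 6 and 0 of 9 in the Dgcr8 iKO. Over all genes tested 15.3%, 14.6%, 7.37% and 13.4% were called higher in these comparisons. The medians of their log2 fold changes were 2.01, 2.29, 0.96 and 1.79. Shh, a secreted signal that uninjured SCs normally do not make, was at 369 ± 70.0 CPM in the crushed and 2.19 ± 0.701 CPM in the uncrushed nerves (log2 fold change 7.48), at 23.4 ± 9.77 CPM in the Dicer iKO (2.43) and at 36.9 ± 2.48 CPM in the Dgcr8 iKO (3.17). The trophic factor Gdnf (5.82, 4.47 and 4.23 in the same comparisons) and the neurotrophin receptor Ngfr (5.05, 1.37 and 2.43) were also called in all of them. The mean of Gdnf was 97.6 CPM in the crushed and 2.01 CPM in the uncrushed nerves, and 2.42 and 8.43 CPM in the Dicer and Dgcr8 iKO. The controls of the knockouts had 0 to 0.144 and 0.118 to 0.817 CPM of Gdnf, below or about the detection floor. Its fold values in the knockouts thus depend on the model's handling of low counts.

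Not every gene of that list went up. Sox2, a factor of immature SCs, was called after crush (2.64) and in the Dgcr8 iKO (1.79) and had 0.96 in the Dicer iKO, under the 2-fold limit. Gap43, a growth cone protein, was called after crush (1.39) and in the Dgcr8 iKO (1.79), with 0.21 in the Dicer iKO. Its Dgcr8 iKO libraries spread from 5.02 to 32.2 CPM and overlapped with their controls, at 4.09 to 6.50 CPM. Gfap, an intermediate filament, rose by less than 2-fold against uncrushed (0.83, adjusted p = 0.00113). It was called against contralateral (1.46) and in both knockouts (2.72 and 2.62). Lif, a cytokine, was called in none. After crush it rose by less than 2-fold, by 0.68 against uncrushed (adjusted p = 0.00754) and 0.44 against contralateral (adjusted p = 0.0263). In the Dicer and Dgcr8 iKO Lif had -0.58 and -0.43 (adjusted p = 0.142 in both). Cdh2, N-cadherin, was lower after crush (-1.37 against uncrushed and -1.60 against contralateral). The adhesion molecule Nrcam was raised after crush (2.65) but had 0.11 in the Dicer iKO (adjusted p = 0.769). In the Dgcr8 iKO it rose by less than 2-fold (0.82, adjusted p = 0.00222). Artn and Olig1 were too low to be tested and Bdnf was tested in the uncrushed comparison (-0.85, adjusted p = 0.122).

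**Figure D5:**
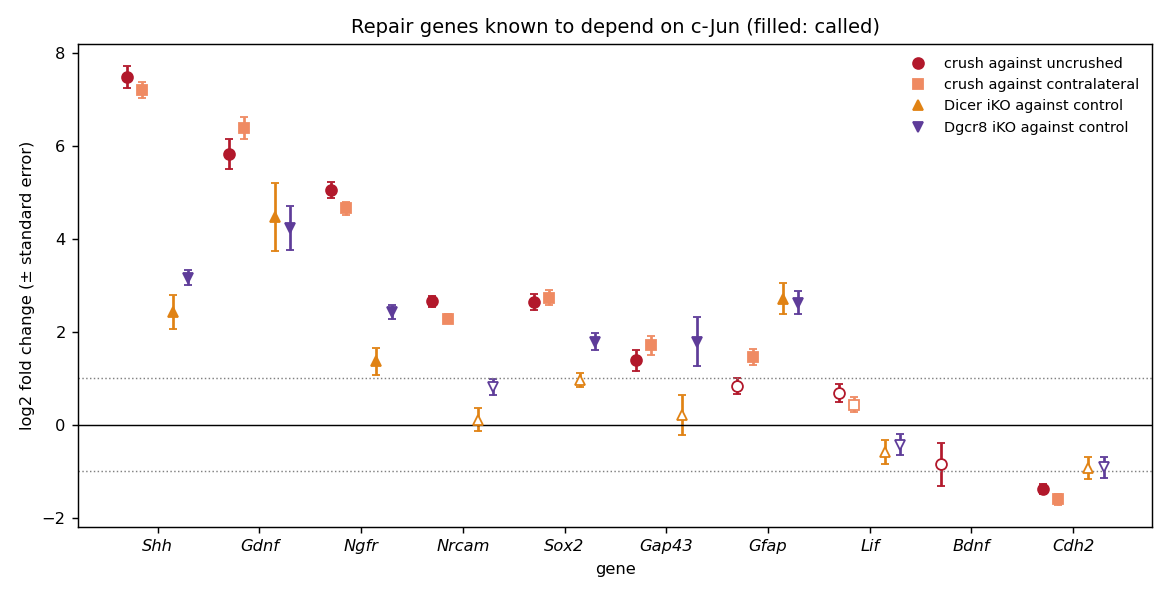
Fitted log2 fold change (± SE) of 10 repair genes known to depend on c-Jun or to accompany it, in 4 comparisons, with filled symbols for called changes, the dotted lines at 2-fold and no symbol where a gene was not tested. Shh, Gdnf and Ngfr are filled in all 4, with Shh at 7.48 and 7.20 after crush and 2.43 and 3.17 in the knockouts, and Cdh2 lies below 0 in all 4.

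Of 20 genes known as AP-1 targets, 15 were tested after crush and 12 of them were higher and none lower in either comparison. In the Dicer iKO 9 of 14 were higher and 1 lower, in the Dgcr8 iKO 10 of 14 higher and 1 lower, and the medians in these 4 comparisons were 2.52, 2.86, 2.07 and 2.81. The shares of all genes called higher were 15.3%, 14.6%, 7.37% and 13.4%. Timp1, an inhibitor of matrix proteases, led with log2 fold changes of 7.69, 8.16, 3.78 and 5.29. The protease Mmp12 was raised by 3.49 and 4.24 in the knockouts, while Mmp9 was lower (-2.71 and -1.19). Many of these genes are also expressed by macrophages, whose markers moved with the same groups.

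Among 29 other basic leucine zipper genes that can pair with AP-1 proteins, 9 of 27 tested were higher after crush against uncrushed, 7 higher and 1 lower against contralateral, 2 of 26 higher in the Dicer iKO and 6 of 26 in the Dgcr8 iKO. In either direction 33.3%, 29.6%, 7.69% and 23.1% of them were called, against 36.5%, 28.3%, 9.01% and 20.4% of all genes tested. All of these calls were increases, other than that of Maf against contralateral. Over all genes tested 15.3%, 14.6%, 7.37% and 13.4% were called higher in these comparisons. Cebpb was raised after crush by 2.81 and 2.95 on the log2 scale and in the Dgcr8 iKO by 2.25, and Cebpa by 1.87 and 3.06 in the Dicer and Dgcr8 iKO. Maf was lower in the crushed than in the contralateral nerves (-1.37).

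Upstream of c-Jun, 2 of 18 genes of the JNK pathway were higher and 5 lower against uncrushed, 1 and 4 against contralateral, and 1 and 1 of 17 in the Dicer and of 18 in the Dgcr8 iKO. That is 38.9%, 27.8%, 11.8% and 11.1% of the list, against 36.5%, 28.3%, 9.01% and 20.4% of all genes tested. The single gene called higher in all 4 comparisons was Dusp10, which encodes a phosphatase of JNK and p38, with log2 fold changes of 5.28, 4.76, 2.31 and 3.32. It was at 38.5 ± 3.82 CPM in the crushed and 1.05 ± 0.0716 CPM in the uncrushed nerves. The JNK scaffolds Mapk8ip1 (-2.22 and -2.26 after crush) and Mapk8ip2 (-2.62 against uncrushed, -1.58 and -2.61 in the knockouts) were lower.

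Other immediate early genes did not all move as Fos did. Of the 22 listed, 10 of 21 tested were higher and 4 lower in both crush comparisons, 1 of 20 was higher in the Dicer iKO, and 6 of 22 were higher and 1 lower in the Dgcr8 iKO. Called in either direction were 66.7%, 66.7%, 5% and 31.8% of the list, against 36.5%, 28.3%, 9.01% and 20.4% of all genes tested. Gadd45b (4.25 and 3.53), Myc (2.90 and 2.93) and Arc (2.74 and 2.79) led the increases after crush, and Myc was also called in the Dicer (1.06) and Dgcr8 iKO (2.03). Egr2, the regulator of myelination also called Krox20, was lower after crush (-2.59 and -2.69), as were Nr4a1 (-1.40 and -1.61) and Nr4a2 (-1.96 and -2.13). In none of the lists of other genes was any gene called between contralateral and uncrushed nerves or between the knockout effects.

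Genes whose levels followed Jun and Atf3 most closely were ranked by Pearson's r of log2(CPM + 1) leaving out genes whose mean log2 CPM was under 1. Over the 11 crush libraries the likest genes to Jun were Ran (0.998), Lgr6 (0.998), Angptl2 (0.998), Sox4 (0.997) and Ncl (0.997), and those to Atf3 were Nsun2 (0.998), Dlg1 (0.997), Dync1li1 (0.996), Nrcam (0.995) and Met (0.995). Since the libraries fall into crushed and control groups, 1722 and 1528 of the 14240 genes ranked reached 0.95, so the order within them carries little. Over the 12 iKO libraries the likest to Jun were Ppp1r3d (0.994), Tnfaip2 (0.987), Hdlbp (0.986), Apod (0.985) and Casp8 (0.985), with 323 of 12624 genes at 0.95 or more. Atf3 had 5 such genes there, Slc35b4 (0.960), Adam17 (0.959), Lhfpl2 (0.956), Ddhd1 (0.951) and Klk8 (0.95). These are descriptions over libraries that share their groups and carry no test.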

How the data were processed

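RNA from whole sciatic nerves was sequenced in 23 libraries, 11 of the crush experiment and 12 of the iKO experiment. The authors trimmed reads with Trimmomatic, aligned them with STAR to GRCm38 and quantified transcripts with RSEM, and per the file headers the deposited files hold RSEM expected counts and TPM for each transcript. Per the labels, the crush libraries were made with a SMARTer kit for low input and the iKO libraries with a stranded TruSeq kit, both with ribosomal RNA removed, whereas the study's methods describe the TruSeq kit for all, so the experiments were kept apart.

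For each gene the expected counts of its transcripts were added and rounded to whole numbers, and gene IDs were matched to GRCm38 symbols. In the crush libraries 1 short transcript took 61.4% to 71.8% of all TPM, so the deposited TPM were used only for shares within the Jun and Fos families. Each comparison was fitted on its own pair of groups with edgeR 4.0.16 in R 4.3.3 (quasi-likelihood test, filterByExpr with a minimum count of 10, TMM normalization), with Benjamini-Hochberg adjustment over all genes tested, and the knockout effects were compared in a fit of all 12 iKO libraries. Genes were called at a fold change of at least 2 and an adjusted p of at most 0.05, the difference of knockout effects at the adjusted p alone. CPM were TMM-normalized over all libraries of an experiment. The same code was tested on simulated counts with known changes. Alternatives covered normalization, filters, DESeq2 1.42.0, edgeR's exact test, 1 fit for all groups, a replicate block, each library left out and, chosen after seeing the data, the transcripts listed in both experiments.

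All 10 members were named, and of other lists the 3 genes per direction with the largest called change at a mean log2 CPM of at least 1, or any gene in lists of 12 or fewer, other than a gene that is not reported here. The members and lists were chosen with earlier results of these data known. By the methods the libraries of a group came from separate mice. The contralateral nerves were taken from the crushed mice, so those groups share animals, and the main fit did not pair them. A library titled Uncrushed_3 is numbered 4 in its description, and the title was used.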

Additional observations from a re-analysis of the deposited data

Results flagged for a closer look

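Fos in contralateral replicate 1 was at 4.73 CPM, whereas the other 3 contralateral nerves lay between 4.25 and 4.33 CPM, and its gap to the nearest of them took up 0.841 of the group's range. This was 1 of 20 groups of 4 libraries examined in this way (10 members in the crushed and the contralateral nerves), and chance gives about 1 such value in 20 groups. The crushed nerves were at 38.1 CPM or more, and with libraries left out in turn the log2 fold change of Fos against contralateral ran from 3.28 to 3.46.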

How the results depend on the processing

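Of 178 counts of called members under an alternative, 165 stayed within 1.5 times the main count, and of 805 log2 fold changes 754 kept their direction and their side of the threshold. After crush, 7 and 8 members were called higher with any library left out, as with all libraries, and also with the transcripts listed in both experiments. With at least 10 counts required in every library, 5 members were called against contralateral and 0 were called lower in the Dgcr8 iKO, since Fosb, Fosl1 and Batf, and there Fosb, were no longer tested. Leaving out libraries in turn gave 0 to 2 members called higher in the Dicer iKO, 3 to 5 in the Dgcr8 iKO and 0 to 2 for the difference of the knockout effects. For that difference 1 member was called with no filter on counts and 2 by DESeq2.

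Whether the replicate numbers mark nerves of the same mouse is not known. The mean correlation of same-numbered deviations ran from -0.0775 to 0.0479 over the 5 comparisons, from too few libraries to decide it. With the replicate block no member gained or lost its call between crushed and contralateral nerves. In the Dicer iKO 1 member was then called higher, Jun, with Atf3 at an adjusted p of 0.0616 and Batf at 0.0959 in edgeR. With the block Jund after crush was at 0.0084 against uncrushed. Batf in the Dicer iKO also lost its call with no filter, by DESeq2 and in 1 fit of all groups (adjusted p from 0.0900 to 0.124).

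Values near 0 changed sign. Jund against uncrushed was 0.23 with no filter, where the fitted values of the crush comparisons shifted upwards for all members and the median of all genes was -0.39, and -0.047 to 0.051 with libraries left out. Between contralateral and uncrushed nerves Fosl2 was 0.0075 with RLE normalization, 0.037 with no filter and 0.0081 by DESeq2, and with libraries left out Junb ran from -0.53 to 0.10, Fos from -0.43 to 0.11 and Fosl2 from -0.050 to 0.077. Batf3 in the Dgcr8 iKO was -0.00018 by DESeq2 and -0.28 to 0.43 with libraries left out. The difference of knockout effects ran from -0.23 to 0.21 for Atf3, -0.89 to 1.04 for Batf and -0.40 to 0.32 for Batf3. By counts without length the Jun share of its family was 78.7% in crushed, 40.8% in contralateral, 43.7% in Dicer iKO, 26.5% in Dicer control, 49.6% in Dgcr8 iKO and 34.2% in Dgcr8 control nerves, as length no longer weighs the genes. Depth limits Fosl1, Batf and Batf3, which had few counts in all libraries other than, for Fosl1, the crushed ones. It also limits Fosb, with 5 to 13 counts in the Dgcr8 iKO libraries and 3 to 15 in the contralateral ones.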
